A study of Mus musculus with 9 samples.

Results

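The effect of doxycycline (dox) on gene expression in the presence of oestradiol (E2) was measured in primary osteoblasts from the skull roof of newborn mice, known as NeMCO cells, with dox plus E2 arrays set against arrays of E2 alone. Members were chosen by their titles, and they made up 5 of the 9 Illumina bead arrays in the series. The 2 dox plus E2 arrays (replicates 2 and 3) came from cells given dox at 500 ng/ml and E2 at 10 nM, and the 3 E2 arrays (replicates 1, 2 and 3) came from cells given E2 at 10 nM. All cells of both groups carried a lentivirus from which dox switches on RUNX2, had been grown without phenol red in medium with 20% serum stripped of steroids by charcoal, and were treated for 48 h. The other 4 arrays, dox at 500 ng/ml (n = 2) and vehicle (n = 2), were the same cells without E2 and lay on another slide. No array came from cells without the virus, so an effect of dox as a drug and an effect of RUNX2 cannot be told apart.

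RUNX2 is the transcription factor that commits mesenchymal cells to the bone-forming lineage. It binds a short DNA element, switches on the osteoblast transcription factor gene Sp7 and, with its product, the genes for alkaline phosphatase, osteocalcin and other matrix proteins. Oestradiol is the ovarian steroid that restrains bone loss, and its receptor is known to bind the RUNX2 protein.

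Between 11554 and 12206 of 25697 probes lay above background on each array, and 9489 genes were tested. The 5 arrays of the 2 groups shared 1 slide, with E2 at positions A to C and dox plus E2 at positions F and G, so dox and position on the slide cannot be told apart. The labels do not say whether replicates were separate cultures. Each p-value reflects how far all 9 arrays of the series scattered within their groups, and that scatter may be technical only. Of 10 osteoblast markers, Col1a1, Col1a2, Sparc, Alpl and Sp7 were above background on 5 of 5 arrays, Bglap2 on 2, Bglap on 1, and Runx2, Ibsp and Postn on 0. Of 13 chondrocyte markers 9 were above background on at least 1 array, among them the cartilage collagen gene Col2a1, at 14.50 and 14.32 on the dox plus E2 arrays, against 14.47, 14.46 and 14.66 on the E2 arrays, and the cartilage transcription factor gene Sox9, at 10.27 and 10.21, against 10.22, 10.33 and 10.39. The groups overlapped for both, and the part of cartilage cells in the results was not tested. The probes of Runx2, Esr1, Pgr and Greb1 were below background on every one of the 9 arrays, so the level of RUNX2 itself and of the main oestrogen receptor could not be read. Whether the Runx2 probes cover the virus transcript was not given in the sources used here.

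Of the 9489 genes, 7 rose with dox plus E2 at a Benjamini-Hochberg adjusted p under 0.05 (limma), which is 0.0738% of the genes tested, and 0 fell in that fit. They were the granzyme genes Gzmd and Gzme, the osteoblast genes Sp7, Bglap2 and Alpl, the membrane-trafficking gene Pacsin1 and the kinase gene Dapk2. Their log2 changes lay between 0.72 and 1.82. In all, 591 genes (6.23%) had an unadjusted p under 0.05, 281 of them higher (2.96%) and 310 lower (3.27%). All levels below are normalised log2 signals, and all changes are dox plus E2 minus E2 on that scale ± standard error (SE) from the limma fit, unless stated otherwise.

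**Figure D1:**
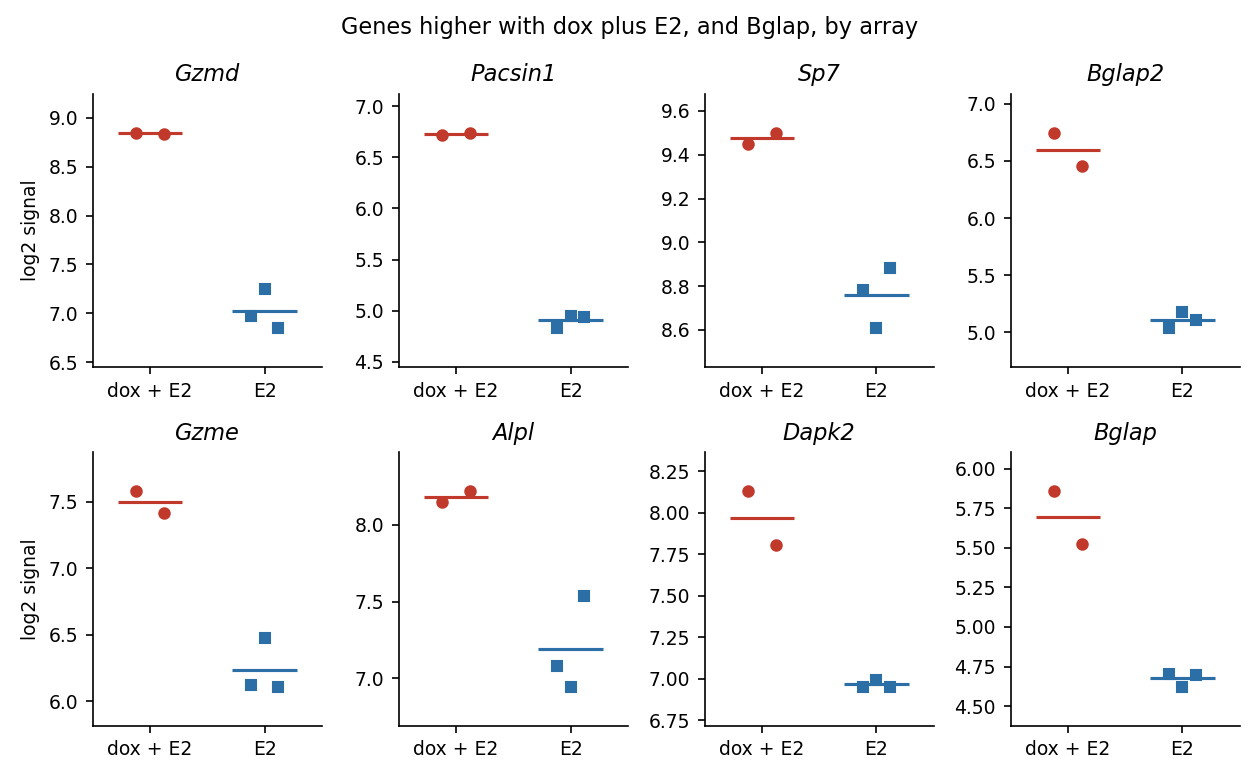
Normalised log2 signal of each array (points) and group mean (line) for the 7 genes that passed and for Bglap, with dox plus E2 (2 arrays) left of E2 (3 arrays). Each panel has its own vertical scale, which does not start at 0, and in all 8 panels both dox plus E2 arrays lie above all 3 E2 arrays.

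The granzymes are serine proteases that are best known from the granules of cytotoxic lymphocytes, and several of their genes lie side by side on mouse chromosome 14. Gzmd (probe ILMN_2987649) had levels of 8.85 and 8.83 on the dox plus E2 arrays, against 6.97, 7.25 and 6.85 on the E2 arrays. The groups were far apart, and the change was 1.82 ± 0.15, a 3.53-fold rise (adjusted p = 7.9e-08). Gzme (ILMN_2642942) had 7.58 and 7.41 on the dox plus E2 arrays, against 6.12, 6.48 and 6.11 on the E2 arrays. Again the groups did not overlap, and Gzme rose by 1.26 ± 0.21 (2.40-fold, adjusted p = 0.00691). E2 replicate 2 was the highest E2 array for both genes.

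The rest of the granzyme list stayed near background. Of 10 genes on the list, 9 had probes and 3 were tested, of which 2 rose. Gzmn, the remaining tested one, was at 5.31 and 5.32 on the dox plus E2 arrays, against 5.77, 5.74 and 5.44 on the E2 arrays (change -0.33 ± 0.28, adjusted p = 0.906). Gzmb, Gzmc, Gzmf, Gzmg and Gzmk had no probe above background on any array. Of the 11 cytotoxic lymphocyte markers with a probe, 3 were tested. Cd3e, Cd3g, Cd8a, Cd2, Nkg7 and Klrd1, markers of T and natural killer cells, were below background on 5 of 5 arrays. The T cell kinase gene Lck was above background on 1 of 2 dox plus E2 arrays and 2 of 3 E2 arrays (change -0.09 ± 0.30, adjusted p = 0.980). The natural killer receptor gene Klrb1c was above background on 0 of 2 and 1 of 3 (change 0.08 ± 0.28, adjusted p = 0.981). The pore-forming perforin gene Prf1 was above background on 5 of 5 arrays, with 8.91 and 8.61 on the dox plus E2 arrays, against 8.30, 8.40 and 8.23 on the E2 arrays (change 0.45 ± 0.14, adjusted p = 0.572). The summed linear signal of the 3 tested markers ran from 476 to 590 on dox plus E2 arrays and from 393 to 438 on E2 arrays. Prf1, whose change did not pass, made up most of each sum, and Lck and Klrb1c lay near background.

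The start regions of Gzmd and Gzme were read from RefSeq promoter sequences (GRCm38.p6), because the pair rose together and because RUNX proteins are known to bind the core ACCACA. The 250 bases before each start site are shown 5′ to 3′ on the strand of the gene, with each match to ACCACA, on either strand, in capitals. A match on the other strand reads TGTGGT, and AACCACA is the longer form that contains the core. Pacsin1 is shown as the remaining gene past the threshold with a match, and Bglap, added after its values were seen, as the neighbour of Bglap2.
Gzmd, chr14:56132594-56132843, minus strand: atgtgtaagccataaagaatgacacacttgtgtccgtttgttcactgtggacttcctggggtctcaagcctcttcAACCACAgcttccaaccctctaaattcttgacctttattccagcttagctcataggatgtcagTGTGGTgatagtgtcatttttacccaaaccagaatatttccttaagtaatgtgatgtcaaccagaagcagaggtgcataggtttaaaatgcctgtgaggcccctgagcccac
Gzme, chr14:56120626-56120875, minus strand: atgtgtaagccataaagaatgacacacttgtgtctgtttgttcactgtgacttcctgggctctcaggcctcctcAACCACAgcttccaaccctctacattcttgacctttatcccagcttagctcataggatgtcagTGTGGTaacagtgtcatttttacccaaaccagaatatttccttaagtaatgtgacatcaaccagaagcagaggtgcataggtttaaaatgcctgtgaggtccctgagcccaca
Bglap, chr3:88384467-88384716, minus strand: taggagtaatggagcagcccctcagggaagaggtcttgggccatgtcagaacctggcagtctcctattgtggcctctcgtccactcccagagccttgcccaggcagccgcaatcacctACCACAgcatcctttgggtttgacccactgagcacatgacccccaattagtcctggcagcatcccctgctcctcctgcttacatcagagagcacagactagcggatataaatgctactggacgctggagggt
Pacsin1, chr17:27684989-27685238, plus strand: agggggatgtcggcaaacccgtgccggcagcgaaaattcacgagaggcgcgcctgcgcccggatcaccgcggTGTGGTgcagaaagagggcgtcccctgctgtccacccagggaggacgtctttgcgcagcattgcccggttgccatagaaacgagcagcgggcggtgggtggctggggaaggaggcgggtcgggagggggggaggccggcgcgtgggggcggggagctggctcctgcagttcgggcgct

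Counted from the start site, AACCACA began at -175 in Gzmd and at -176 in Gzme, and the match on the opposite strand lay at -112 in Gzmd and at -113 in Gzme. The Gzmd and Gzme sequences were nearly copies of each other, with 238 of 251 aligned positions identical (94.8%), so they are not independent examples. Bglap had ACCACA at -132, and Pacsin1 had it on the opposite strand at -178. The 2 listed start sites of Alpl and the 1 of Dapk2 held no match. No sequence is given here for Sp7 and Bglap2. Among all 32851 listed promoters, 4614 held ACCACA in the same window (14.0%) and 1444 held AACCACA (4.40%). A match describes the letters only.

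Osteoblast genes made up the second group. Sp7 (ILMN_2733114, chromosome 15), which codes for the zinc-finger factor osterix that osteoblasts cannot form without, had levels of 9.45 and 9.50 on the dox plus E2 arrays, against 8.78, 8.61 and 8.88 on the E2 arrays. The groups did not overlap, and Sp7 had the smallest change of the 7 genes, 0.72 ± 0.11 (1.64-fold, adjusted p = 0.00392). Alpl (ILMN_2661287, chromosome 4), the tissue-nonspecific alkaline phosphatase that frees phosphate for mineral, had 8.15 and 8.22 on the dox plus E2 arrays, against 7.08, 6.95 and 7.54 on the E2 arrays. The groups did not overlap, though E2 replicate 3 stood above the other E2 arrays, and Alpl rose by 0.99 ± 0.17 (1.99-fold, adjusted p = 0.00886).

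Bglap and Bglap2 are neighbouring genes on chromosome 3 that code for osteocalcin, a protein of mineralised matrix, and their near-identical transcripts mean that probes may read both. Bglap2 (ILMN_2944508) had 6.75 and 6.45 on the dox plus E2 arrays, against 5.04, 5.17 and 5.11 on the E2 arrays. Its probe was below background on 3 of 3 E2 arrays, so the fold is a bound: the dox plus E2 mean was at least 1.98-fold above the detection floor of the E2 arrays (change 1.49 ± 0.24, adjusted p = 0.00447). For each array below background, that floor is the lowest signal of any detected probe, or the probe's own signal where that is higher. Bglap (ILMN_2610166) had 5.86 and 5.52 on the dox plus E2 arrays, against 4.70, 4.62 and 4.70 on the E2 arrays. Only 1 of these 5 arrays detected it, and its change of 1.02 ± 0.29 did not pass (adjusted p = 0.381). Bglap passed under 4 alternatives. Its adjusted p was 0.0120 without background correction and with the table scaled by the authors, which hold nearly the same values. With normexp and an offset of 50 its adjusted p was 0.00835, and with no detection filter 0.0408. Over the alternatives that keep all arrays it ran from 0.00835 to 0.981.

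Of the 30 genes on the osteoblast maturation list, 20 were tested, and 11 changes were positive and 9 negative, with a median of 0.03. Among all genes tested, 4844 changes were positive and 4645 negative, with a median of 0.004. The 3 that passed were Sp7, Alpl and Bglap2. Among the named members that did not pass, the collagen gene Col1a1 had a difference of -0.11 ± 0.06 (adjusted p = 0.872; with scaling to the 75th percentile its log2 difference was 0.01, with an adjusted p of 0.992), the osteopontin gene Spp1 one of -0.09 ± 0.08 (adjusted p = 0.909) and the phosphate-regulating peptidase gene Phex one of -0.49 ± 0.27 (adjusted p = 0.856). Spp1 overlapped between groups, with 14.08 and 13.82 on the dox plus E2 arrays, against 14.14, 14.06 and 13.92 on the E2 arrays. Positive changes that did not pass either were those of Bglap (1.02 ± 0.29), the collagen gene Col1a2 (0.13 ± 0.09, adjusted p = 0.888) and Mepe (0.16 ± 0.24, adjusted p = 0.941). Dlx5, Msx2, Phospho1, Ibsp and Dmp1 were among the 10 members not tested.

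Reported RUNX2 targets gave a like picture, with 16 of 22 tested, 9 positive, 7 negative and the same 3 genes past the threshold (median 0.03). Mmp13, a collagenase of bone and hypertrophic cartilage, came closest of the rest in the reported fit. It had 9.56 and 9.80 on the dox plus E2 arrays, against 8.99, 9.39 and 9.25 on the E2 arrays, and its change of 0.47 ± 0.12 did not pass (adjusted p = 0.340). The arrays did not overlap for Mmp13, a separation that 10.7% of all genes showed in the upward direction. These values are of the brightest of its 2 kept probes, and Mmp13 was not among the genes whose probes both had an unadjusted p under 0.05.

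The remaining pair that passed has no bone role on these lists. Pacsin1, an adaptor of endocytosis that is abundant in neurons (ILMN_2644415, chromosome 17), had 6.72 and 6.74 on the dox plus E2 arrays, against 4.83, 4.95 and 4.94 on the E2 arrays. Its probe was below background on 3 of 3 E2 arrays, and the dox plus E2 mean was at least 2.17-fold above their floor (change 1.82 ± 0.23, adjusted p = 0.000138). Pacsin1 and Bglap2 entered the test through the dox arrays alone, since their probes were detected on the 4 arrays with dox and on none without. The Bglap probe was detected on 2 of 9 arrays, of which 1 was a dox plus E2 array and 0 were E2 arrays. Without E2 it had 5.45 and 6.02 on dox arrays, against 4.81 and 4.84 on vehicle arrays. Dapk2, a calmodulin-dependent kinase of the death-associated family (ILMN_2977558, chromosome 9), had 8.13 and 7.81 on the dox plus E2 arrays, against 6.95, 7.0 and 6.95 on the E2 arrays. The E2 arrays lay close together and far below both dox plus E2 arrays, and Dapk2 rose by 1.00 ± 0.18 (2.00-fold, adjusted p = 0.0110). The relatives Dapk1 and Dapk3 and the relatives Pacsin2 and Pacsin3 were above background on 5 of 5 arrays and did not pass, with differences of -0.20 for Dapk1, -0.07 for Dapk3, 0.04 for Pacsin2 and -0.03 for Pacsin3 in their brightest probes.

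Leaving out single arrays mattered for the others of the 7 more than for Gzmd and Pacsin1. Under the 12 settings that keep all arrays, Gzmd and Bglap2 passed in 12, and Pacsin1 and Sp7 in 11. Pacsin1 did not pass when a gene's kept probes were averaged (change 0.98, adjusted p = 0.237). Gzmd passed in 21 of 21 alternative settings, and Pacsin1 in 20. Without dox plus E2 replicate 2, 3 genes passed, namely Gzmd, Pacsin1 and the oestradiol-metabolising cytochrome gene Cyp1b1, and without dox plus E2 replicate 3 the 2 genes that passed were Gzmd and Pacsin1. In these fits the lone dox plus E2 array is assumed to vary like the other groups. Alpl was also lost without E2 replicate 2 (adjusted p = 0.0775, with 0.00279 to 0.332 over all fits that leave out an array). Without E2 replicate 3, Dapk2 (adjusted p = 0.0704, with 0.00615 to 0.716 over these fits) and Gzme (0.0626, with 0.00365 to 0.35) were lost. With all arrays kept, Gzme, Alpl and Dapk2 did not pass with no detection filter (adjusted p = 0.137, 0.0837 and 0.151). Without the intensity trend Gzme, Alpl, Dapk2 and Sp7 did not pass (adjusted p = 0.242, 0.341, 0.242 and 0.177). The changes of dim genes shrank when no background was subtracted, to 0.77 for Pacsin1, 0.59 for Bglap2, 0.64 for Gzme, 0.61 for Dapk2, 0.63 for Alpl and 1.23 for Gzmd, and all 7 genes still passed.

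Across all 9489 genes the changes formed a narrow band. The middle 90% lay between -0.29 and 0.29, and the 1st and 99th percentiles were -0.48 and 0.48. In all, 7 genes exceeded 1 and 1 gene was below -1, while 81 exceeded 0.5 and 83 were below -0.5. The band widened toward dim probes: the SD of the changes was 0.279 among the 1523 genes with a mean level under 6 and 0.0770 among the 805 genes at 12 or more. Of the 7 genes that passed, 2 had a mean level under 6, 1 lay between 6 and 7, 3 lay between 7 and 8, and Sp7 lay between 8 and 9. None of the 4151 genes at 9 or more passed, although 286 of them had an unadjusted p under 0.05.

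**Figure D2:**
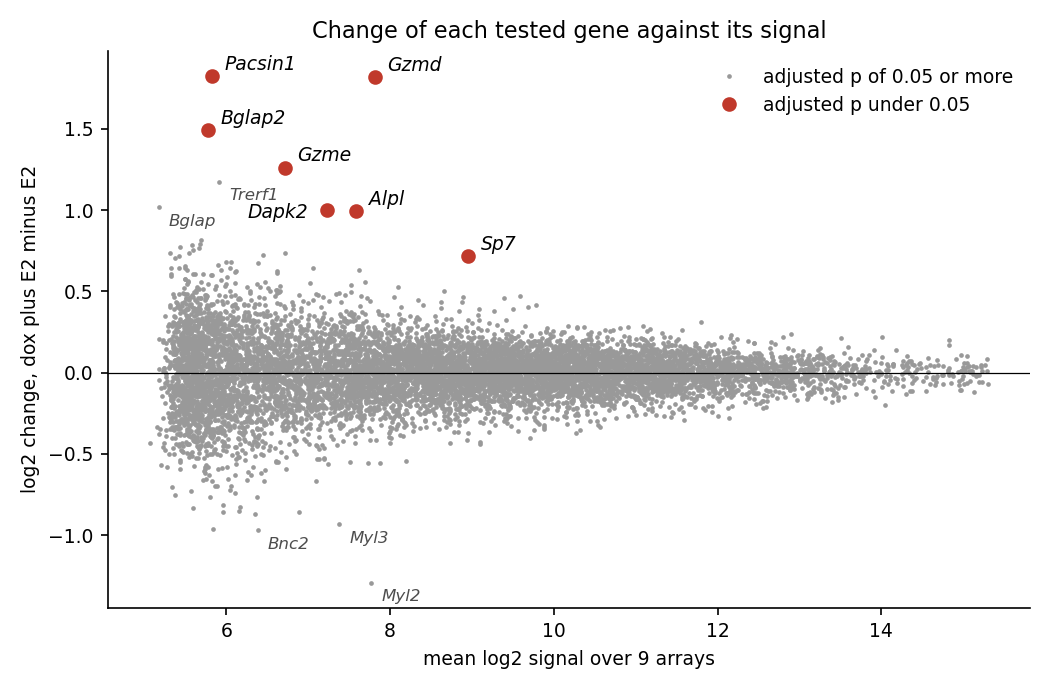
Log2 change (dox plus E2 minus E2) of each of 9489 genes against its mean log2 signal over 9 arrays, with the 7 genes at an adjusted p under 0.05 in red. The cloud narrows from an SD of 0.279 at levels under 6 to 0.0770 at 12 or more, and the 7 red points lie above it.

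Ranked by size among genes with an unadjusted p under 0.05 and no overlap of arrays, the 15 largest positive changes were in Pacsin1, Gzmd, Bglap2, Gzme, Trerf1, Bglap, Dapk2, Alpl, Col11a2, Tnfsf8, Olfr159, Dlc1, Rorb, S1pr5 and Frat1. Of these, 6 passed, and 9 had a probe below background on every E2 array. Trerf1, a zinc-finger regulator of a steroid-synthesis gene in human cells, had the largest positive change that did not pass. It had 6.20 and 6.82 on the dox plus E2 arrays, against 5.12, 5.62 and 5.26 on the E2 arrays (change 1.17 ± 0.26, adjusted p = 0.131). The others that did not pass, among them the cartilage collagen gene Col11a2 (0.81 ± 0.27) and the CD30 ligand gene Tnfsf8 (0.79 ± 0.26), had adjusted p-values from 0.381 to 0.675.

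At the other end of the ranking were Myl2, Bnc2, Slx1b, Myl3, 2810021J22Rik, Mb, Baiap2, Ovol2, Amz1, Xk, Spty2d1, Ube2u, Napepld, Sorbs2 and Yipf4, with changes from -1.29 to -0.74. None of the 15 passed in the reported fit, and 1 was above background on 5 of 5 arrays. Myl2, the regulatory myosin light chain of heart ventricle and slow muscle, came closest. It had 5.41 and 5.57 on the dox plus E2 arrays, against 6.19, 6.50 and 7.65 on the E2 arrays. Within the E2 group, replicate 3 was over 1 log2 unit above the other E2 arrays, and both dox plus E2 arrays were below background (change -1.29 ± 0.26, adjusted p = 0.0527). Over the fits that leave out an array, its adjusted p ran from 0.000780 without E2 replicate 1 (change -1.59) to 0.742 without dox plus E2 replicate 2 (change -1.21). Without E2 replicate 3 the change was -0.86 (adjusted p = 0.162). With all arrays kept, Myl2 passed as lower with scaling to the 75th percentile (adjusted p = 0.0169) and with array weights (0.0158), within a range of 0.0158 to 0.736 over such settings.

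Further genes of the same muscle types stood near it in the ranking. Myl3, the essential light chain of ventricle and slow muscle, had 5.96 and 5.23 on the dox plus E2 arrays, against 6.04, 6.43 and 7.11 on the E2 arrays (change -0.93 ± 0.25, adjusted p = 0.345). Mb, which codes for the oxygen-binding myoglobin, had 5.32 and 5.31 on the dox plus E2 arrays, against 6.32, 5.44 and 6.74 on the E2 arrays (change -0.85 ± 0.25, adjusted p = 0.433). The ranking took only genes without overlap, so separation is no finding for these genes. E2 replicate 3 was the highest array each time. Myl3 passed without E2 replicate 1 (-1.17, adjusted p = 0.0294, against 0.0294 to 0.783 over all fits without an array), and Mb without E2 replicate 2 (-1.22, adjusted p = 0.00954, range 0.00954 to 0.997).

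Of the 12 heart and slow muscle markers, 11 had a probe and 7 were tested, and all 7 changes were negative, with a median of -0.20 and 0 past the threshold. Myl7, Myh7, Tnni1 and Ryr2 were below background on 5 of 5 arrays. The summed linear signal of the detected markers ran from 669 to 751 on dox plus E2 arrays and from 782 to 1036 on E2 arrays. On the slide without E2, Myl2 was much brighter, at 10.04 and 9.41 on dox arrays and at 9.69 and 9.47 on vehicle arrays, and slide and E2 cannot be told apart. Of the 10 skeletal muscle markers, 4 were tested, with 2 positive and 2 negative changes and a median of 0.008. Their summed signal ran from 222 to 228 on dox plus E2 arrays and from 209 to 240 on E2 arrays. Whether muscle cells in the cultures have a part in these values was not tested, and in bulk RNA fewer cells of a type and less RNA per cell cannot be told apart.

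**Figure D3:**
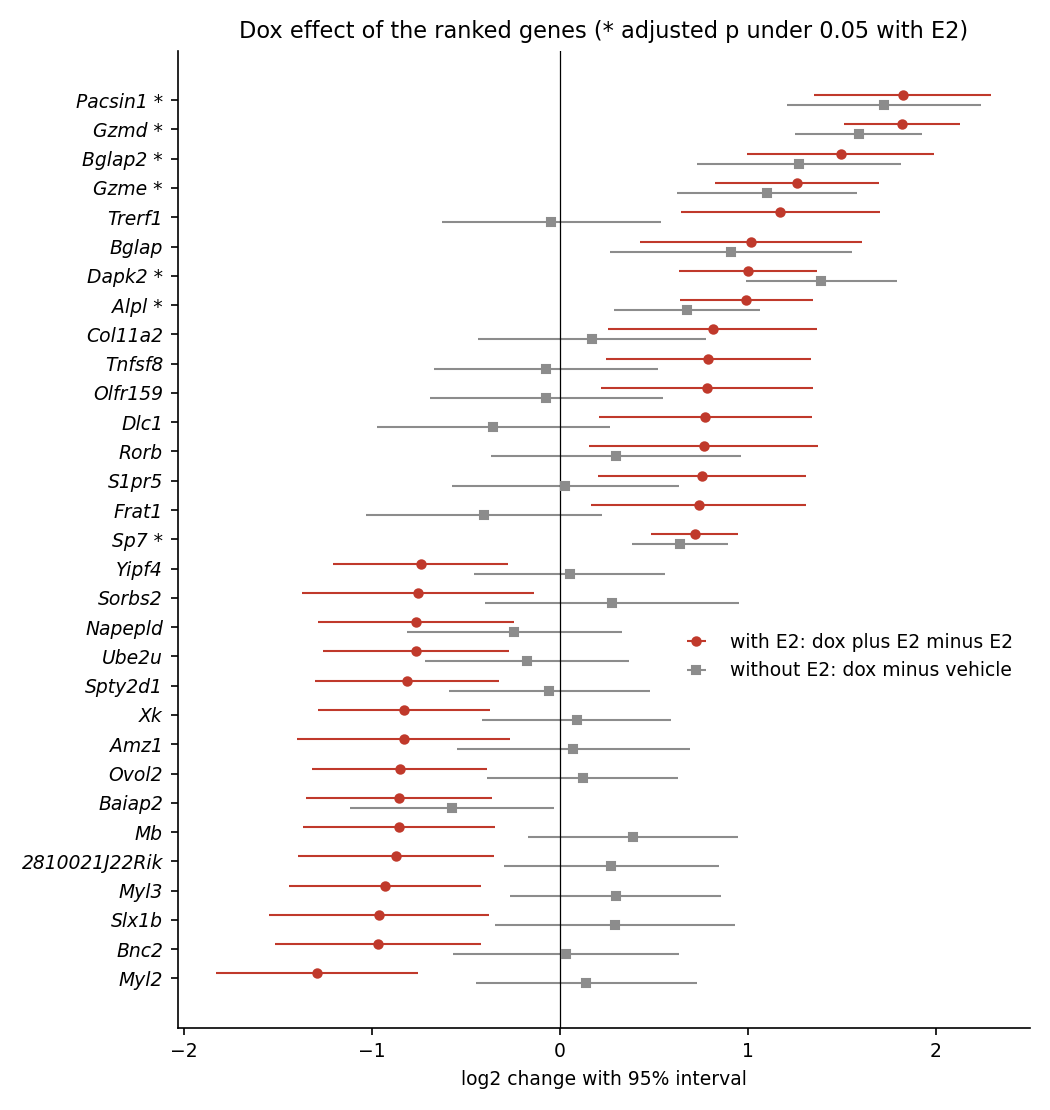
Log2 change with its 95% interval for the 15 largest positive changes, Sp7 and the 15 largest negative changes among genes with an unadjusted p under 0.05 and no overlap of arrays, with E2 (red circles, dox plus E2 minus E2) and without E2 (grey squares, dox minus vehicle). An asterisk marks the 7 genes at an adjusted p under 0.05 with E2, and for those 7 the grey squares also lie to the right of 0.

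Without E2, the dox effect of the 7 genes could be set beside that with E2, since the effects share no array, although 1 estimate of the spread serves both. The change was 1.82 with E2 and 1.59 without it for Gzmd, 1.82 and 1.72 for Pacsin1, 1.49 and 1.27 for Bglap2, and 1.26 and 1.10 for Gzme. For Dapk2 it was 1.00 with E2 and 1.39 without, for Alpl 0.99 and 0.68, and for Sp7 0.72 and 0.64. Without E2, Gzmd, Pacsin1 and Dapk2 passed, while the adjusted p was 0.0569 for Sp7, 0.117 for Bglap2 and for Gzme, and 0.464 for Alpl. No difference between the effects passed, and the intervals leave room for sizeable ones: the 95% interval of the difference was -0.23 to 0.69 for Gzmd, -0.93 to 0.15 for Dapk2 and -0.21 to 0.84 for Alpl. Over all 9489 genes, 0 differences passed in limma (0%), and 652 had an unadjusted p under 0.05 (6.87%). The number that passed was 4 when dox replicate 1 was left out. Of the 15 largest positive changes, 10 were positive without E2 as well, and of the 15 largest negative changes 4 were negative there. The share of agreeing signs over all genes is not given here, so these 2 counts cannot be judged against it. Myl2 had a dox effect of 0.14 ± 0.28 without E2, and the effect with E2 minus that without was -1.43 (95% interval -2.23 to -0.64, adjusted p = 0.637).

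Secreted factors by which osteoblasts direct osteoclasts, the cells that resorb bone, showed no gene past the threshold. Of 23 on the list 14 were tested, with 4 positive and 10 negative changes (median -0.07). The osteoclast-inducing cytokine RANKL (Tnfsf11) had 8.75 and 8.79 on the dox plus E2 arrays, against 8.54, 8.81 and 8.77 on the E2 arrays, and the groups overlapped (change 0.06 ± 0.13, adjusted p = 0.971). Its decoy receptor Tnfrsf11b had a difference of 0.01 ± 0.08 and the macrophage growth factor Csf1 one of -0.02 ± 0.07, and both changed sign under some settings. Wnt5a, a non-canonical Wnt ligand, had 8.52 and 8.86 on the dox plus E2 arrays, against 9.38, 8.88 and 9.10 on the E2 arrays (change -0.42 ± 0.13, adjusted p = 0.572). Sema3a, a semaphorin that holds back osteoclasts, had a difference of -0.26 ± 0.10 (adjusted p = 0.669).

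Oestrogen-responsive genes split evenly, with 5 positive and 5 negative changes among 10 tested of 20. Cyp1b1 had the largest, and its dox plus E2 arrays disagreed: 7.48 and 8.49, against 7.21, 7.45 and 7.41 on the E2 arrays (change 0.63 ± 0.20, adjusted p = 0.572). With the higher array alone, its change was 1.14 (adjusted p = 0.0316, with 0.0316 to 0.94 over all fits that leave out an array). Esr2 and Gper1 were not tested, as was the case for Esr1, Pgr and Greb1.

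The remaining lists, on growth, signalling, matrix and stress, held no gene past the threshold, and their medians lay between -0.08 and 0.08. Of 21 cell cycle genes tested, 12 changes were positive, and the spindle checkpoint kinase gene Bub1b had the largest (0.49 ± 0.18, adjusted p = 0.668). Among 12 cell cycle inhibitors, 8 were positive, and Rgcc, a regulator of cell cycle kinases, had 8.38 and 8.44 on the dox plus E2 arrays, against 7.67, 8.0 and 7.97 on the E2 arrays (change 0.52 ± 0.14, adjusted p = 0.345). Small leucine-rich proteoglycans, which bind collagen fibrils, had 7 negative changes of 8, led by lumican (Lum, -0.45 ± 0.16, adjusted p = 0.661). In the IGF axis Igfbp5, which binds insulin-like growth factors, had 9.20 and 9.59 on the dox plus E2 arrays, against 9.76, 9.89 and 9.75 on the E2 arrays (change -0.40 ± 0.11, adjusted p = 0.345). The Wnt effector Tcf7l2 had 9.50 and 9.53 on the dox plus E2 arrays, against 9.75, 9.96 and 9.88 on the E2 arrays (change -0.35 ± 0.09, adjusted p = 0.345). Serping1, the inhibitor of complement C1, had 7.94 and 8.02 on the dox plus E2 arrays, against 7.39, 7.32 and 7.56 on the E2 arrays (change 0.56 ± 0.15, adjusted p = 0.345). These groups did not overlap for Rgcc, Igfbp5, Tcf7l2 and Serping1, a separation that 20.8% of all genes showed in either direction.

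Of 14 immediate early genes tested, which respond within minutes to stimuli, 8 had a positive change and 0 passed. Fos had 7.32 and 7.33 on the dox plus E2 arrays, against 7.27, 7.12 and 7.18 on the E2 arrays (change 0.13 ± 0.40, adjusted p = 0.980). These Fos arrays did not overlap, a separation that 10.7% of all genes showed in the upward direction. The SE draws on all 9 arrays, and for Fos the dox arrays without E2 lay far apart, at 10.41 and 7.52. Egr1 had a difference of -0.03 ± 0.22, which turned positive under some settings. Ier3, an early gene of stress signalling, had 0.31 ± 0.09 (adjusted p = 0.459), and the transcription factor gene Klf4 had -0.36 ± 0.12 (adjusted p = 0.589).

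**Figure D4:**
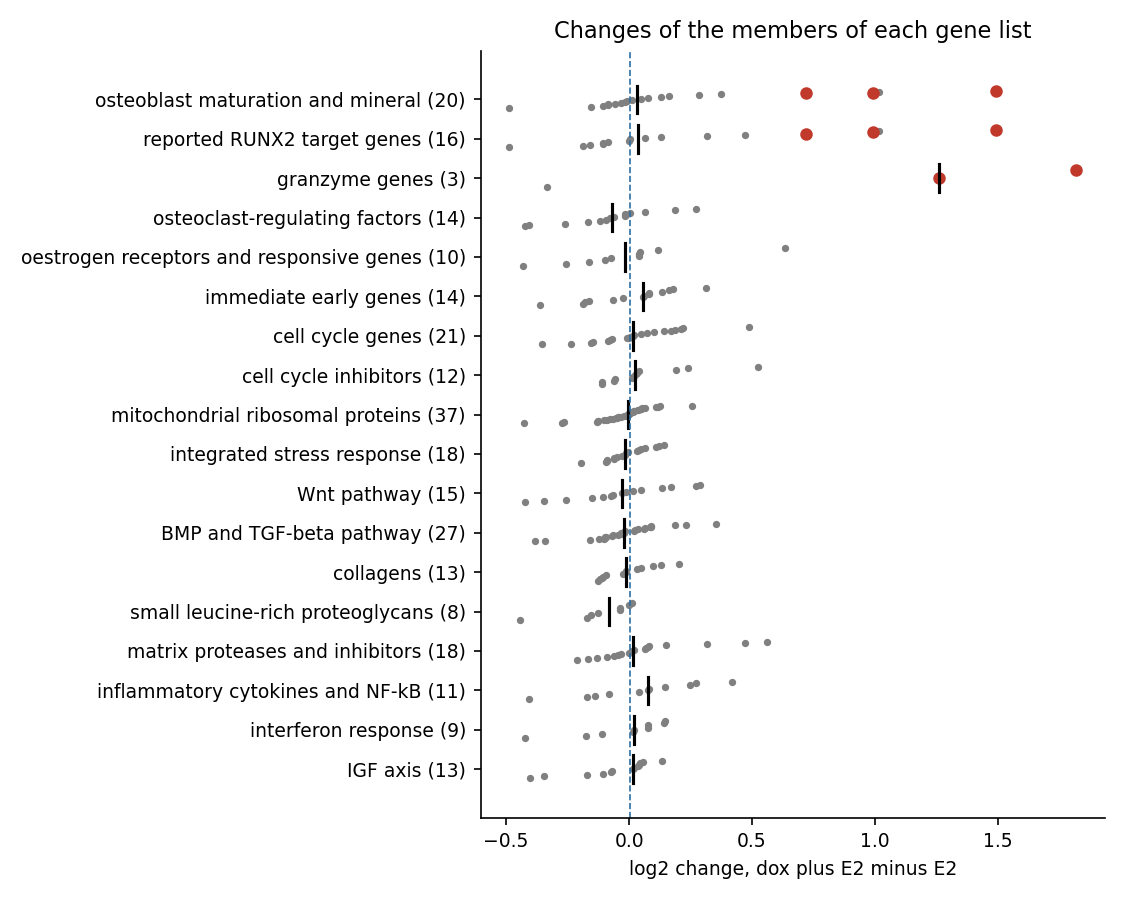
Log2 change (dox plus E2 minus E2) of the tested members of each gene list, with the number tested in brackets, red points for members at an adjusted p under 0.05, grey points for the others, a black bar for the median of the list and a dashed line for the median of all 9489 genes (0.004). Red points occur in 3 lists, and Sp7, Alpl and Bglap2 stand in both of the upper lists.

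Agreement between probes was examined in the 2447 genes with 2 or more kept probes, setting the brightest against the next brightest. The probes share the same arrays and are not replicates. Their changes had the same sign in 1303 genes (53.2%), with a median gap of 0.127, and Pearson's r across genes was 0.111. Among the 130 genes whose brightest probe had an unadjusted p under 0.05, 85 had the same sign in the other probe (65.4%), which was 41 of 57 higher genes and 44 of 73 lower ones. Where the second probe was brighter the gap was smaller: its median was 0.196 for second probes under a level of 7 and 0.0793 for those at 9 or more.

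Both probes had an unadjusted p under 0.05 in 13 genes, and those named here were chosen after their values were seen. Both were higher in 6, among them Gzmd, Adssl1, Mgat1, Zfp36l1 and Aifm2. Both were lower in 6, namely LOC100044363, Scoc, Fnip1, Ube2g1, Eif4e3 and Mospd1, and Ndufc1 had probes of opposite sign. A second probe under 0.05 with the same sign was thus found in 12 of the 130 genes above. It was also found in 60 of the 2317 genes whose brightest probe had an unadjusted p of 0.05 or more. Adssl1, an enzyme of purine synthesis in muscle, had the closest match of the higher ones, with 0.46 and 0.49.

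For the 7 genes, each tested as a probe among 12912, the same 7 probes passed (0.0542%) and no second probe did. The second Gzmd probe (ILMN_2678281) had 6.01 and 6.11 on the dox plus E2 arrays, against 5.14, 5.73 and 5.60 on the E2 arrays, a change of 0.57 in place of the 1.82 of ILMN_2987649. It lay higher on both dox plus E2 arrays but was detected on 3 of the 5. Pacsin1 had a second probe (ILMN_3074180) with 5.54 and 5.59 on the dox plus E2 arrays, against 5.44, 5.49 and 5.34 on the E2 arrays, below background on 5 of 5, and its change was 0.14. When a gene's kept probes were averaged, Pacsin1 had a difference of 0.98 and no longer passed (adjusted p = 0.237, against 4.2e-05 to 0.237 over the settings that keep all arrays). The other probes of Gzme (ILMN_1224204) and Dapk2 (ILMN_2669333) were below background on all arrays, with differences of 0.64 and 0.21. So was a further Pacsin1 probe (ILMN_3153080), with a difference of 0.15. Alpl, Sp7 and Bglap2 had 1 probe each, so no second probe could be compared. Gzmd and Gzme are close relatives, and whether either probe also reads the other transcript was not tested.

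**Figure D5:**
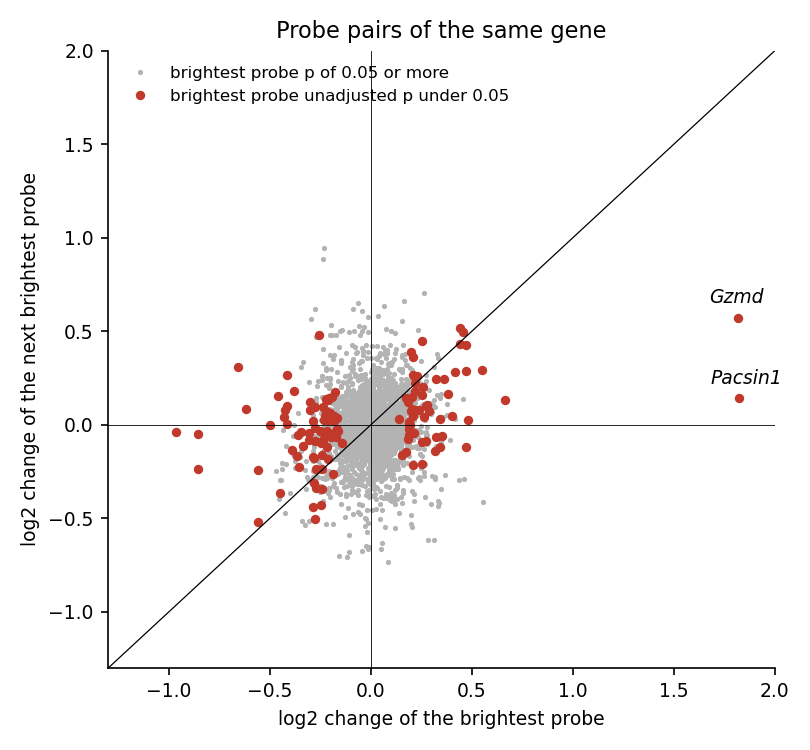
Log2 change (dox plus E2 minus E2) of the next brightest kept probe against that of the brightest, for 2447 genes, with the 130 genes whose brightest probe had an unadjusted p under 0.05 in red and a diagonal line of equal change. Gzmd and Pacsin1 lie far to the right at 1.82, with second probes at 0.57 and 0.14.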

How the data were processed

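Total RNA was labelled with biotin by the Ambion MessageAmp kit after Trizol extraction and column clean-up, per the labels' protocols. The deposited table holds a linear intensity and a detection p-value for 25697 probes on each of 9 arrays, per the file headers, and the submitters' processing notes name GenomeStudio 2011.1. These signals carry no background subtraction or scaling. A second deposited table of intensity values, scaled by the authors, served as an alternative. A genome build for the probes was not given in the sources used here. Symbols were updated with RefSeq of GRCm38.p6: 20733 probes had a current symbol, 3917 matched a synonym and 1047 kept the deposited one.

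Signals were processed with neqc of limma 3.58.1 (R 4.3.3): background correction from the detection p-values, quantile normalization and log2 with an offset of 16, which pulls changes of dim probes toward 0. Equal distributions on all arrays hide a shift of most genes in 1 direction. Probes were kept where the detection p was below 0.05 on 2 or more of 9 arrays (12912), and each of 9489 genes was read by its brightest kept probe. All 9 arrays were fitted with a mean per group and an intensity trend, which lets the small groups share 1 estimate of spread, and moderated two-sided tests were adjusted by Benjamini-Hochberg over all genes. On simulated data for dox plus E2 against E2, 200 of 9489 genes were changed. Of these, 48% of genes changed by 0.5 and 80% of those changed by 1 on the log2 scale were recovered, with 8 false calls. In the data 7 genes passed, which makes the adjusted threshold stricter than in the simulation. The recovered shares therefore do not carry over to this comparison. Precision is limited by the number of arrays.

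Genes named are those that passed, the 15 largest positive and 15 largest negative changes with an unadjusted p under 0.05 and no overlap of arrays, up to 3 of each list by p, and a set of RUNX2, osteoclast and oestrogen genes. The comparison, lists and rule were chosen with earlier results of these data known. Alternatives were the 5 arrays alone, other background steps and scalings, the detection filter, mean of probes, the variance prior, array weights, a replicate block and leaving out each array. Promoter windows came from RefSeq and were searched on both strands. Figures were drawn with matplotlib 3.10.9. A few genes are not reported here.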

Additional observations from a re-analysis of the deposited data

How the results depend on the processing

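The 7 genes and 7 probes that passed became 3 and 3 without the intensity trend in the variance prior. With a replicate block 5 genes and 2 probes passed: Gzmd, Pacsin1, Sp7 and Bglap2 remained of the 7, Myl2 passed as lower (-1.41, adjusted p = 0.0382), and Alpl, Dapk2 and Gzme had adjusted p-values of 0.0597, 0.0745 and 0.0636. The groups share the replicate numbers 2 and 3, but the deviations of same-numbered arrays correlated at -0.0465 over genes and 2 pairs cannot settle a pairing. Leaving out each array in turn left 2 to 9 genes, 2 to 8 probes and 0 to 4 differences of dox effects with and without E2, the 4 being without dox replicate 1. The other settings gave 6 to 8 genes. Of 1458 values for 70 named genes under these settings, 1408 kept their direction and side of the threshold, 24 lost the threshold, 14 gained it and 12 changed sign. All 12 were in genes whose reported change was close to 0. With scaling to the 75th percentile Col1a1 had 0.011, Csf1 0.026 and Egr1 0.014, and with the replicate block Egr1 had 0.11. Over the fits without an array the ranges were -0.22 to 0.045 for Spp1, -0.021 to 0.12 for Tnfsf11, -0.070 to 0.059 for Tnfrsf11b, -0.090 to 0.059 for Csf1 and -0.062 to 0.012 for Egr1. The cause was not tested. Pacsin1, Bglap2, Bglap and the muscle genes Myl2, Myl3 and Mb were below background on whole groups or nearly so. Whether this affects the precision of their changes was not tested.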
